A study of Rattus norvegicus with 8 samples.

Results

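The calpains and their inhibitor calpastatin were followed in cultured rat annulus fibrosus cells (AFCs) under cyclic mechanical stretch (CMS). The 9 genes were chosen by symbol: the calpains Capn1, Capn2, Capn5, Capn6, Capn7, Capn10 and Capn15, the small regulatory subunit Capns1, and calpastatin (Cast). Each had 1 row among the 31699 rows of the gene table. RNA-seq was carried out on 8 samples of AFCs from Sprague Dawley rats, all of them stretched. In 4 samples the cells had received the empty pLVX-shRNA-Puro lentivirus (Lv-Ctrl), and in the other 4 they had received pLVX-shRNA-Puro-Piezo1, a lentivirus with 1 short hairpin RNA against Piezo1 (Lv-Piezo1). Per the study's methods, AF tissue of several rats was pooled for each isolation, the cells were passaged before infection, and the 4 samples of a group were biological repeats. No unstretched sample was analysed here, so the effect of CMS itself on these genes is not addressed.

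Calpains are cysteine proteases of the cytosol that are switched on by calcium and that cut their substrates at a few sites rather than degrading them. The conventional enzymes, calpain 1 (encoded by Capn1) and calpain 2 (encoded by Capn2), each pair with the small subunit encoded by Capns1, and both are held in check by calpastatin. Opening of Piezo1, a calcium-permeable channel gated by membrane tension, admits the ion that activates them. The comparison asks whether the transcripts of this protease system differed between the groups. Calpain protein and calpain activity were not measured in these files. The study itself assayed both in stretched cells, and reported lower calpain activity and less calpain 1 and calpain 2 protein after Lv-Piezo1. Those assays are of protein, and they were not tested against the transcripts here.

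The values were TPM, transcript abundance corrected for transcript length and scaled to a fixed total in each sample, so levels can be set beside each other between genes. Group differences were tested with limma on log2(TPM + 1) over the 13103 genes with a mean of at least 1 TPM. In what follows a gene rose or fell where its adjusted p was below 0.05, and it passed both thresholds where its log2 fold change was also at least 1 in size. The Piezo1 transcript, the target of the hairpin, went against the label: it ranged from 26.7 to 33.0 TPM in Lv-Ctrl and from 37.7 to 41.4 TPM in the samples labelled Lv-Piezo1 (log2 difference 0.38, adjusted p = 8.6e-04). Every direction below is therefore given by the label alone. The study reports that it verified the Piezo1 knockdown by this lentivirus, and why the transcript was higher here was not tested. All tested genes together had a median log2 fold change of 0.14, and median-ratio scaling of the samples brought it to -0.0046. The scaling also moved the split of genes with an adjusted p below 0.05 from 5489 higher and 2137 lower to 3657 higher and 3651 lower. The 8 markers of annulus and fibrous matrix summed to 7077 to 7925 TPM in Lv-Ctrl and to 10367 to 11059 TPM in the samples labelled Lv-Piezo1, and Tnmd was at or near 0. They moved in both directions: Col1a1, Col1a2 and Scx rose, with log2 fold changes of 0.83, 0.71 and 0.89, while Dcn, Fmod and Mkx fell, with -1.49, -0.99 and -0.76. The 8 smooth muscle and pericyte markers summed to 332 to 342 TPM in Lv-Ctrl and to 4428 to 4605 TPM in the samples labelled Lv-Piezo1, with 7 of 7 tested markers higher. Of the leukocyte markers, Ptprc, Adgre1 and Tyrobp were at or near 0 in all samples, but Cd68 went from 0.955 ± 0.899 to 12.3 ± 0.901 TPM (SD over 4 samples a group). The summed endothelial markers stayed between 0.34 and 0.62 TPM in all 8 samples. Those of skeletal muscle summed to 53.6 TPM in Lv-Ctrl replicate 2, which stood apart, to 10.4 to 12.7 TPM in the other Lv-Ctrl samples, and to 20.7 to 22.8 TPM in the samples labelled Lv-Piezo1. Outside Lv-Ctrl replicate 2, Acta1 went from 1.59 to 2.14 TPM up to 7.94 to 9.83 TPM. Tnnt3 went from 6.93 to 8.09 TPM up to 10.2 to 11.8 TPM. Ckm (1.31 to 1.93 and 1.19 to 2.18 TPM) and Myh4 (0.50 to 0.59 and 0.40 to 0.64 TPM) overlapped. Over all 8 samples 0 of the 4 tested skeletal muscle markers rose and 0 fell, with a median log2 fold change of -0.08. Without Lv-Ctrl replicate 2 the log2 fold changes of Capn5, Capn10 and Capn15 described below were 0.47, 0.30 and 0.37. The part of these shifts in the results below was not tested, and in bulk RNA fewer cells of a type and less RNA per cell cannot be told apart.

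The small subunit and calpain 2 dominated the family in AFCs. In Lv-Ctrl, Capns1 had the highest level, at 289.9 ± 9.57 TPM, followed by Capn2 at 94.5 ± 7.16 TPM (SD over 4 samples a group). Calpastatin came next at 20.9 ± 2.41 TPM and Capn1 at 17.4 ± 3.57 TPM. The remaining members were Capn7 at 14.7 ± 1.61 TPM, Capn5 at 14.6 ± 0.673 TPM, Capn10 at 11.2 ± 0.514 TPM and Capn15 at 4.72 ± 0.34 TPM. Capn6 was nearly silent at 0.165 ± 0.058 TPM. The ranges of Cast and Capn1, of Capn1 and Capn7, and of Capn7 and Capn5 overlapped in Lv-Ctrl. Within samples, Cast lay above Capn1 and Capn1 above Capn7 in all 4, whereas the order of Capn7 and Capn5 differed between samples. In the samples labelled Lv-Piezo1 the order was the same except that Capn5 had moved above Capn7 and Capn1, with 19.8 to 21.7 TPM against 16.7 to 19.5 TPM for Capn1. There Cast and Capn5, and Capn7 and Capn10, were the neighbours with overlapping ranges. Averaged over all 8 samples, Capns1 lay above 96.3% of the tested genes, Capn2 above 89.0% and Capn1 above 56.7%.

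**Figure D1:**
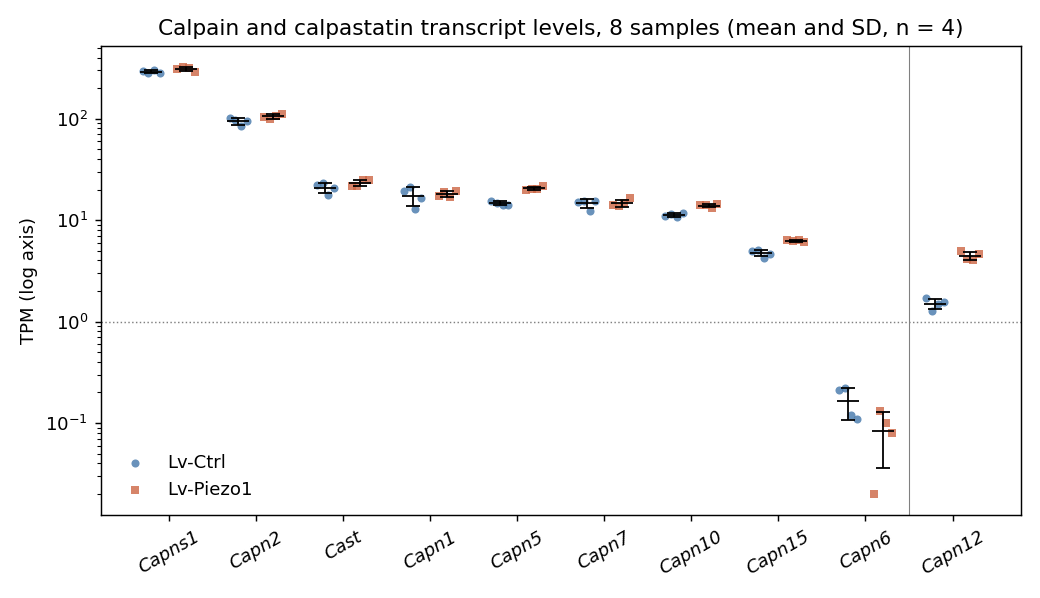
TPM (log axis) of each member and of Capn12, the only other calpain gene above the limit for testing, in each of the 4 Lv-Ctrl (circles) and 4 Lv-Piezo1 (squares) samples, with mean and SD in black. The dotted line marks 1 TPM, and Capn6 is the only plotted gene under it, at 0.02 to 0.22 TPM.

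Among the transcripts of the 13 calpain genes in the table, with the small subunit left out, Capn2 held the largest share in every sample. It made up 59.4% ± 0.768 of their summed TPM in Lv-Ctrl and 57.3% ± 0.912 in the samples labelled Lv-Piezo1 (SD over 4 samples a group). Capn1 held 10.9% ± 1.46 and 9.84% ± 0.657. The share of Capn5 was 9.21% ± 0.558 in Lv-Ctrl and 11.2% ± 0.236 in the samples labelled Lv-Piezo1, without overlap, and that of Capn7 was 9.20% ± 0.409 and 8.03% ± 0.287, also without overlap. The summed level went from between 140 and 168 TPM to between 177 and 195 TPM. The shares of Capn2 and Capn1 overlapped between the groups. Those of Capn15 (2.97% in Lv-Ctrl and 3.40% in the samples labelled Lv-Piezo1) and Capn12 (0.948% and 2.41%) did not. The mean level of Capn7 itself was 14.7 TPM in Lv-Ctrl and 14.8 TPM in the samples labelled Lv-Piezo1.

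The sequence upstream of the genes was set beside these levels. RefSeq start-site windows of assembly GRCr8 were found for 7 of the 9 members (not for Capn1 and Capn5) and for 5 other calpain genes of the table. The letters CG, the CpG dinucleotide that is dense in the promoters of broadly used genes, were counted in the 250 bases before each start. The 6 genes with a mean of at least 5 TPM held 7 to 27 CpGs, and the 6 genes below it held 2 to 5. This limit was chosen after the values were seen. All 33462 windows together had a median of 5, and 92.2% of them held at least 1. Capn7 held 27 CpGs, Capn10 22, Capns1 21, Capn15 12, Capn2 10, Cast 7 and Capn6 4. A count of 10 or more was found in 35.9% of all windows, and a count of 4 or more in 62.6%. The windows shown are that of the main catalytic gene, that of Capn15, and that of the nearly silent gene. Capn15 had the lowest level of the tested members, 5.47 TPM over the 8 samples. The windows are written 5′ to 3′ on the gene's strand with every CpG in capitals. They lie at chr13:96732626-96732875 (minus strand) for Capn2, chr10:15503914-15504163 (minus strand) for Capn15 and chrX:112202179-112202428 (minus strand) for Capn6.
Capn2: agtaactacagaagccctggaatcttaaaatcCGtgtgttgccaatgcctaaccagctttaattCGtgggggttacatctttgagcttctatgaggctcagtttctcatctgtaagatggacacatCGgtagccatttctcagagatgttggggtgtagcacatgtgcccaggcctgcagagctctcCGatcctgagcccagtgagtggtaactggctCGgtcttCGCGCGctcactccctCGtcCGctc
Capn15: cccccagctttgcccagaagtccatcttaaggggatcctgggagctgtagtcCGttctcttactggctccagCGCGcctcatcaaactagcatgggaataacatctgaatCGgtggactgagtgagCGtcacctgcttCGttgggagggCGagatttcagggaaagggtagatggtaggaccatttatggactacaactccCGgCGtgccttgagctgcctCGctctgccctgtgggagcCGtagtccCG
Capn6: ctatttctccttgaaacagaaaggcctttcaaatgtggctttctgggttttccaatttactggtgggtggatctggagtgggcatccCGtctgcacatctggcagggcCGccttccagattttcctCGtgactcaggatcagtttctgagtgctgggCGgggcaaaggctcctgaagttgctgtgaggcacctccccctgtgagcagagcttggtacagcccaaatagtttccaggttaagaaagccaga
The CpGs of Capn2 and Capn15 outnumber those of Capn6, but the order of the counts is not the order of the levels: Capn2, with 10, had a level of 99.9 TPM over the 8 samples, and Capn7, with 27, had 14.7 TPM.

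The transcripts of the conventional calpains differed little between the groups. Capn2 (ENSRNOG00000034015), the gene of the calcium-hungry m-calpain, measured 100.4, 97.7, 84.1 and 95.7 TPM in Lv-Ctrl replicates 1 to 4 and 103.0, 99.5, 106.5 and 112.1 TPM in the replicates labelled Lv-Piezo1. The groups overlapped, since Lv-Ctrl replicate 1 lay above Lv-Piezo1 replicate 2. The mean was 11.5% higher under the Lv-Piezo1 label, at a log2 fold change of 0.16 (standard error, SE, 0.06, 95% interval 0.02 to 0.29, adjusted p = 0.049; exact two-sided permutation test, p = 0.057). The rise of Capn2 stood at the median of all genes, 0.01 above it on the log2 scale, and after median-ratio scaling its log2 fold change was -0.0048 (adjusted p = 0.93). Its adjusted p was above 0.05 in 12 of 16 alternative fits. Among these were the fits without Lv-Ctrl replicate 2, 3 or 4 (0.057, 0.075 and 0.078, with log2 fold changes of 0.17, 0.10 and 0.16). The fits without Lv-Piezo1 replicate 1, 3 or 4 were also among them (0.074, 0.10 and 0.12, with log2 fold changes of 0.17, 0.15 and 0.13).

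Capn1 (ENSRNOG00000020935), the gene of µ-calpain, which responds to lower calcium, measured 19.3, 21.1, 12.9 and 16.4 TPM in Lv-Ctrl replicates 1 to 4. In the replicates labelled Lv-Piezo1 it measured 17.1, 18.9, 16.7 and 19.5 TPM. All 4 of the latter values lay inside the range of Lv-Ctrl. The log2 fold change of Capn1 was 0.07 (SE 0.13, 95% interval -0.23 to 0.37, adjusted p = 0.67; exact two-sided permutation test, p = 0.69). Single samples moved this value, to -0.06 without Lv-Ctrl replicate 3 and to 0.16 without Lv-Ctrl replicate 2 (adjusted p = 0.61 and 0.29).

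The small subunit and the inhibitor did not pass the test either. Capns1 (ENSRNOG00000067065) measured 292.6, 283.3, 302.3 and 281.4 TPM in Lv-Ctrl and 305.2, 321.0, 312.2 and 289.0 TPM in the samples labelled Lv-Piezo1. Its groups overlapped, and its log2 fold change was 0.08 (SE 0.04, 95% interval -0.0084 to 0.17, adjusted p = 0.11). Without Lv-Piezo1 replicate 4, the lowest of its group, the log2 fold change of Capns1 was 0.11 with an adjusted p of 0.033. Cast (ENSRNOG00000010286) measured 22.3, 23.0, 17.6 and 20.6 TPM in Lv-Ctrl and 21.7, 21.7, 24.8 and 24.7 TPM in the samples labelled Lv-Piezo1. The log2 fold change of Cast was 0.15 (SE 0.09, 95% interval -0.05 to 0.35, adjusted p = 0.17), and its groups overlapped. Without Lv-Ctrl replicate 3 it was 0.07 (adjusted p = 0.37). Lv-Ctrl replicate 3 was the lowest Lv-Ctrl sample for 7 of the 8 tested members, Capns1 being the exception, and it also had the smallest median-ratio factor of the 8 samples, 0.899.

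Ratios of members within a sample are not changed by a factor applied to the whole sample, and 3 of them were compared between the groups. The ratio of Capn2 to Capn1 was 5.21, 4.64, 6.52 and 5.85 in Lv-Ctrl replicates 1 to 4 and 6.02, 5.26, 6.37 and 5.74 in the replicates labelled Lv-Piezo1. The log2 difference was 0.08 (95% interval from the exact permutation test -0.305 to 0.455; exact two-sided p = 0.54, adjusted p = 0.77 over the 3 ratios). The conventional catalytic transcripts, Capn1 and Capn2 summed, came to 0.387 ± 0.0447 of the Capns1 level in Lv-Ctrl and 0.403 ± 0.0368 in the samples labelled Lv-Piezo1 (SD over 4 samples a group). This log2 difference was 0.06 (95% interval -0.18 to 0.50, exact two-sided p = 0.66, adjusted p = 0.77). Calpastatin came to 0.186 ± 0.0052 of the same sum in Lv-Ctrl and 0.188 ± 0.0091 in the samples labelled Lv-Piezo1 (SD over 4 samples a group). Here the log2 difference was 0.01 (95% interval -0.10 to 0.145, exact two-sided p = 0.77, adjusted p = 0.77). The inhibitor ratio was the tightest of the 3, and its interval was also the narrowest. The smallest p that 4 samples against 4 allow is 0.029. Leaving out single samples turned the sign of these small differences: that of Capn2 to Capn1 became -2.0e-04 without Lv-Ctrl replicate 2, and that of the catalytic sum to Capns1 became -0.02 without Lv-Ctrl replicate 3. That of Cast to the catalytic sum became -0.0012 without Lv-Ctrl replicate 3 and -0.02 without Lv-Piezo1 replicate 3.

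**Figure D2:**
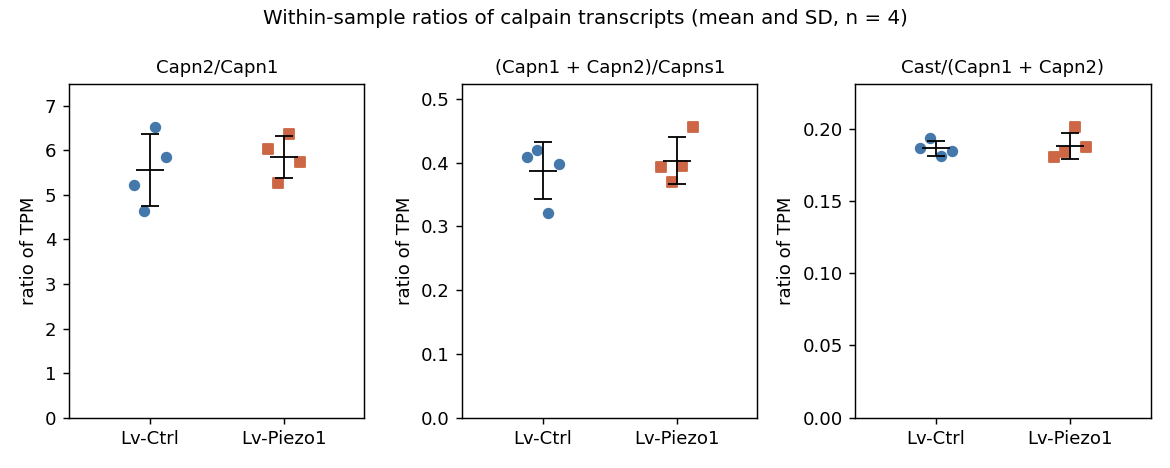
Ratios of TPM within each sample (vertical axes from 0) for Capn2 to Capn1, Capn1 and Capn2 summed to Capns1, and Cast to Capn1 and Capn2 summed, with 4 Lv-Ctrl samples (circles) and 4 labelled Lv-Piezo1 (squares), mean and SD in black. The groups overlap in all 3 panels, and the third has the smallest spread, with every ratio between 0.180 and 0.201.

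Outside the conventional pair, Capn5, Capn10 and Capn15 rose without overlap between the groups. Capn5 (ENSRNOG00000014251), whose product lacks the calcium-binding penta-EF-hand domain of the conventional enzymes, measured 15.5, 14.8, 14.0 and 14.1 TPM in Lv-Ctrl. It measured 19.8, 20.5, 20.5 and 21.7 TPM in the samples labelled Lv-Piezo1, which is 41.0% higher in the mean. The log2 fold change of Capn5 was 0.47 (SE 0.05) with an adjusted p of 3.7e-05, and it lay 0.33 above the median of all genes. Capn15 (ENSRNOG00000020239), a calpain with zinc-finger motifs, measured 4.91, 5.03, 4.26 and 4.67 TPM in Lv-Ctrl. It measured 6.30, 6.21, 6.34 and 6.07 TPM under the Lv-Piezo1 label. Its log2 fold change of 0.34 had an SE of 0.06 and an adjusted p of 0.0015. Capn10 (ENSRNOG00000045623), a calpain gene studied for its link to diabetes, measured 11.01, 11.50, 10.65 and 11.81 TPM in Lv-Ctrl and 14.1, 13.9, 13.3 and 14.3 TPM in the samples labelled Lv-Piezo1. Its log2 fold change was 0.29 (SE 0.05, adjusted p = 9.8e-04). The log2 fold changes of Capn15 and Capn10 lay 0.20 and 0.14 above the median of all genes. For each of Capn5, Capn10 and Capn15 the exact two-sided permutation test gave p = 0.029, the smallest p possible. This p goes with groups that do not overlap, as was so in this direction for 39.8% of all tested genes. After median-ratio scaling the log2 fold changes were 0.31 for Capn5, 0.20 for Capn15 and 0.13 for Capn10, with adjusted p of 1.1e-04, 0.0088 and 0.029. After quantile normalization that of Capn10 was 0.11 with an adjusted p of 0.081.

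Capn7 (ENSRNOG00000019273), a calpain that binds the membrane-sorting ESCRT machinery, did not pass the test. It measured 15.3, 15.6, 12.3 and 15.5 TPM in Lv-Ctrl and 14.1, 13.8, 14.9 and 16.4 TPM in the samples labelled Lv-Piezo1. The log2 fold change of Capn7 was 0.01 (SE 0.09, 95% interval -0.18 to 0.21, adjusted p = 0.90), and it was -0.06 without Lv-Ctrl replicate 3 and -0.03 without Lv-Piezo1 replicate 4. Capn6 (ENSRNOG00000004882), whose product lacks the catalytic cysteine, was below the limit for testing in every sample, with 0.21, 0.22, 0.12 and 0.11 TPM in Lv-Ctrl and 0.02, 0.13, 0.10 and 0.08 TPM in the samples labelled Lv-Piezo1. The sequencing depth is unknown from TPM, so no interval can be set on such low values.

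In all, 8 of the 9 members were tested. Of these 4 rose (Capn2, Capn5, Capn10 and Capn15), 0 fell and 4 did not pass, beside 58.2% of all tested genes with an adjusted p below 0.05, of which 41.9% of all genes were higher and 16.3% lower. The groups did not overlap for 3 of the 8 members, all higher in the samples labelled Lv-Piezo1, beside 54.2% of all tested genes without overlap in either direction and 39.8% in that direction. No member passed both thresholds by limma, against 7.67% of all tested genes, and the count was 0 in all 16 alternative fits. All 8 log2 fold changes were above 0 and the largest was 0.47, so an unadjusted p below 0.05 gives the same counts of 0. The median log2 fold change of the members was 0.15, beside 0.14 for all tested genes. After median-ratio scaling 3 members had an adjusted p below 0.05, beside 55.8% of all tested genes (27.9% higher and 27.9% lower), and the members' median was -0.0054. The log2 fold changes of Capn1, Capn2, Capn7, Capns1 and Cast were below 0 on that scale, at -0.08, -0.0048, -0.14, -0.08 and -0.0060, and their adjusted p were between 0.10 and 0.94. These shares of called members lie near those of all genes.

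**Figure D3:**
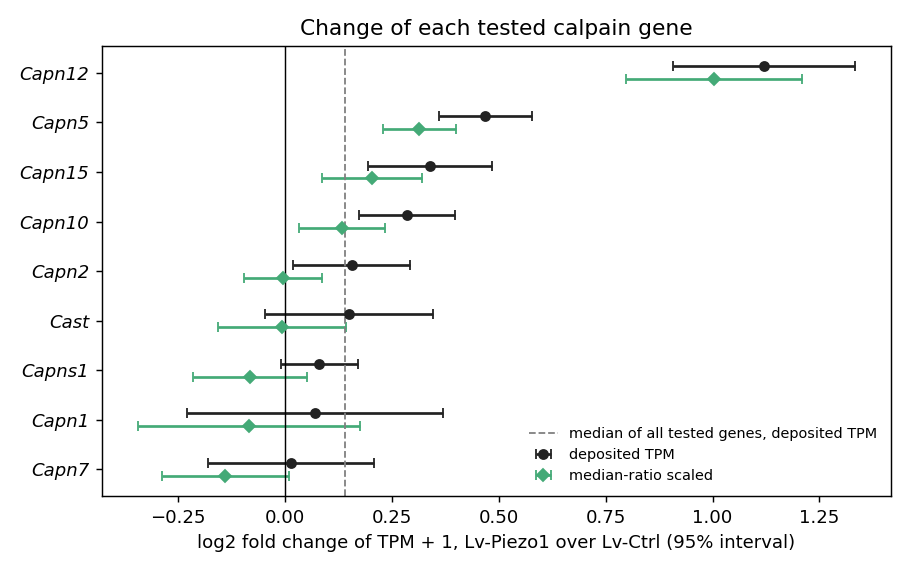
Log2 fold change of TPM + 1 (horizontal axis, Lv-Piezo1 over Lv-Ctrl, with 95% intervals) of the 8 tested members and Capn12, on the deposited TPM (circles) and after median-ratio scaling (diamonds), with the median of all tested genes dashed. Capn12, Capn5, Capn15 and Capn10 lie above 0 on both scales, while the scaled values of Capn2 and Cast lie at -0.0048 and -0.0060.

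The calpain genes outside these 9 were listed at low levels, with 1 exception. Capn12, a calpain described in the hair follicle, measured 1.69, 1.26, 1.48 and 1.57 TPM in Lv-Ctrl and 4.92, 4.16, 4.04 and 4.61 TPM in the samples labelled Lv-Piezo1. The groups did not overlap. The log2 fold change of Capn12 was 1.12 (SE 0.09, adjusted p = 9.7e-06), and it was the only calpain gene to pass both thresholds. After quantile normalization it was 0.90. On the linear scale its mean was 195.5% higher. In the GRCr8 gene table the span of Capn12 overlaps that of its neighbour Actn4, the gene of the actin cross-linker alpha-actinin 4. Actn4, looked up after the values of Capn12 had been seen, went from 227.4 ± 21.0 TPM to 461.4 ± 23.3 TPM (SD over 4 samples a group), a log2 fold change of 1.02 (adjusted p = 2.2e-06). Whether the counting used the strand of the reads is not given in the sources used here, so reads of the neighbours may not be told apart, and the part of Actn4 in the values of Capn12 was not tested. Capn3, the muscle calpain, ranged from 0.15 to 0.38 TPM over the 8 samples. Capn8 and Capn9, known from the stomach, reached at most 0.11 and 0.03 TPM, Capn11 at most 0.08 TPM, and Capn13 was listed at 0 throughout.

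Genes of pathways around the calpains were taken from lists that were chosen with earlier results of these data known. Of 19 genes whose products are known calpain substrates in the cytoskeleton and at adhesion sites, 12 rose, 2 fell and 5 did not pass, beside 41.9% of all tested genes that rose and 16.3% that fell. The median log2 fold change was 0.54 beside 0.14 for all genes. Vcl (vinculin) rose from 86.7 ± 7.53 to 368.3 ± 21.4 TPM, a log2 fold change of 2.08. Flna, the gene of the actin cross-linker filamin A, rose from 120.0 ± 11.4 to 275.2 ± 10.9 TPM, a log2 fold change of 1.20. Itgb3, an integrin subunit, rose from 0.253 ± 0.111 to 1.81 ± 0.433 TPM, a log2 fold change of 1.16. Vcl, Flna and Itgb3 were the 3 genes of the list past both thresholds. Itgb3 was below 1 TPM in every Lv-Ctrl sample and reached the limit for testing only through the other group, with a mean of 1.03 TPM over the 8 samples. It fell under that limit when any Lv-Piezo1 replicate was left out, and its log2 fold change was 2.47 with a pseudocount of 0.1, so its size depends on these choices. Marcks fell from 10.0 ± 1.09 to 5.96 ± 0.576 TPM, and Sptan1, which encodes the alpha-II spectrin used as a marker of calpain cleavage, fell from 124.6 ± 9.79 to 103.9 ± 5.76 TPM (SD over 4 samples a group), with log2 fold changes of -0.66 and -0.26. After median-ratio scaling 11 of the 19 rose and 5 fell, beside 27.9% of all tested genes in each direction. Several of these cytoskeletal genes are also plentiful in smooth muscle cells, whose markers were higher in the same samples as given above. The part of that shift in the counts of this list was not tested.

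The 10 substrates in signalling and calcium handling were mixed. Of 9 tested, 4 rose, 3 fell and 2 did not pass, beside 41.9% and 16.3% of all tested genes, with a median log2 fold change of 0.04 beside 0.14. Ppp3ca, the gene of a calcineurin catalytic subunit, fell from 27.3 ± 2.70 to 17.5 ± 0.866 TPM, and Slc8a1, a sodium-calcium exchanger, fell from 16.6 ± 1.70 to 10.7 ± 0.816 TPM. Atp2b4, a plasma membrane calcium pump, rose from 6.21 ± 0.729 to 8.65 ± 0.864 TPM, and Igf1r, a growth factor receptor, rose from 11.2 ± 1.56 to 14.5 ± 1.28 TPM (SD over 4 samples a group). The log2 fold change of Igf1r was 0.35 (adjusted p = 0.016) and, after median-ratio scaling, 0.20 (adjusted p = 0.064). On that scale 1 of the 9 rose and 4 fell, beside 27.9% of all tested genes in each direction. The sizes of all 9 log2 fold changes were below 1, so 0 passed both thresholds.

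Of 12 genes of calcium entry and stores, 11 were tested, of which 8 rose, 1 fell and 2 did not pass, beside 41.9% of all tested genes that rose and 16.3% that fell. The median was 0.38 beside 0.14 for all genes, and Piezo1 itself is among the 8. Trpv2, a calcium-permeable channel, rose from 5.23 ± 0.23 to 18.8 ± 0.382 TPM, and Itpr1, the inositol trisphosphate receptor of the store, rose from 8.35 ± 1.36 to 17.2 ± 1.51 TPM. Atp2a2, the pump that refills the store, fell from 976 ± 118 to 421 ± 31.8 TPM (SD over 4 samples a group). Their log2 fold changes were 1.67, 0.97 and -1.21. After median-ratio scaling 5 of the 11 rose and 1 fell, beside 27.9% of all tested genes in each direction.

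Of 17 apoptosis genes tied to calpain cleavage, 8 rose, 2 fell and 7 did not pass, beside 41.9% of all tested genes that rose and 16.3% that fell. The median was 0.18 beside 0.14, near that of all genes. All 17 log2 fold changes were below 1 in size, the largest being the 0.63 of Bid, so 0 passed both thresholds. Bid, whose cleaved product acts on the mitochondrion, rose from 20.1 ± 0.97 to 31.8 ± 3.57 TPM (SD over 4 samples a group). Xiap, an inhibitor of apoptosis, fell from 1.85 ± 0.489 to 1.01 ± 0.124 TPM (SD over 4 samples a group). Bax, whose product permeabilizes the mitochondrion, was looked up because the study measured its protein, after its values had been seen. Bax rose from 53.5 ± 5.59 to 66.9 ± 4.33 TPM (SD over 4 samples a group), a log2 fold change of 0.32 (adjusted p = 0.0052), and its log2 fold change after median-ratio scaling was 0.16 (adjusted p = 0.19). On that scale 5 of the 17 genes rose and 5 fell, beside 27.9% of all tested genes in each direction.

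The penta-EF-hand relatives of the small subunit, which share its calcium-binding fold, were tested in full. Gca, or grancalcin, rose from 0.883 ± 0.26 to 3.76 ± 0.358 TPM, a log2 fold change of 1.35, and Pdcd6, also called ALG-2, fell from 146.2 ± 4.44 to 130.7 ± 4.49 TPM (SD over 4 samples a group), a log2 fold change of -0.16. Gca averaged under 1 TPM in Lv-Ctrl and was tested through the other group, was not tested at a mean of at least 5 TPM, and had a log2 fold change of 2.01 with a pseudocount of 0.1. Sri and Pef1 had log2 fold changes of 0.19 and -0.07 (adjusted p = 0.068 and 0.20). The protease and inhibitor set closest to the calpains in kind, the cysteine cathepsins and cystatins of the lysosome and the matrix, is given beside them. Of 11 tested cathepsin and cystatin genes 1 rose, 7 fell and 3 did not pass, beside 41.9% of all tested genes that rose and 16.3% that fell, with a median log2 fold change of -0.53 beside 0.14. After median-ratio scaling 8 fell, beside 27.9% of all tested genes. Ctsk, the collagen-degrading cathepsin K, fell from 220.1 ± 5.01 to 73.3 ± 2.76 TPM, and Ctsh fell from 404.3 ± 8.15 to 240.9 ± 6.24 TPM. Ctsz rose from 6.99 ± 0.575 to 44.8 ± 2.11 TPM (SD over 4 samples a group). The calpain members, for which 0 of 8 fell, and the cathepsins were not tested against each other.

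**Figure D4:**
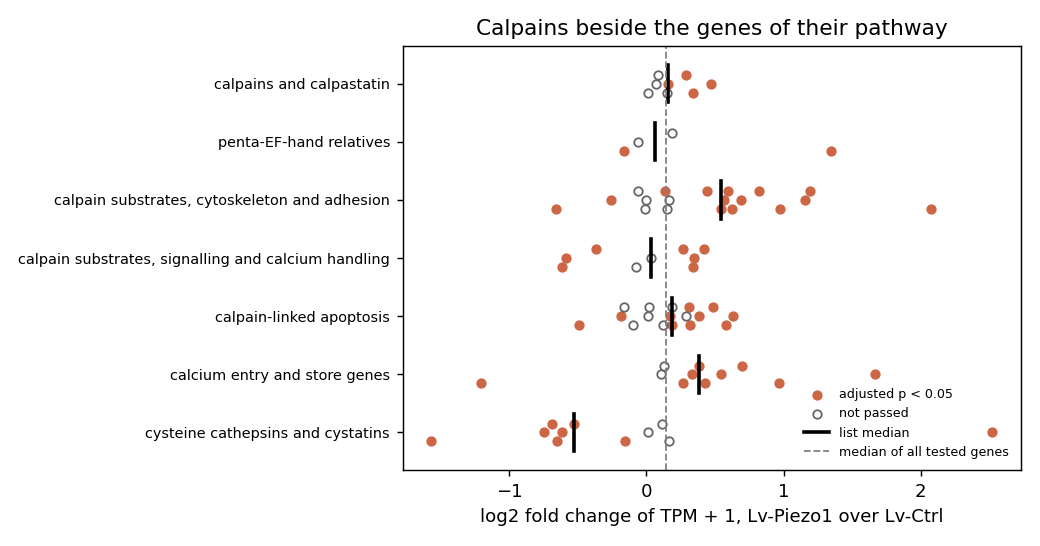
Log2 fold change of TPM + 1 (horizontal axis, Lv-Piezo1 over Lv-Ctrl) of the 8 tested members and of every tested gene of 6 lists around them, 1 point a gene, filled where the adjusted p was below 0.05, with list medians as black bars and the median of all tested genes dashed. The 8 members span 0.01 to 0.47, whereas the cytoskeletal substrates reach 2.08 and the cathepsins run from -1.57 to 2.52.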

How the data were processed

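RNA-seq of 8 AFC samples, 4 Lv-Ctrl and 4 Lv-Piezo1, was analysed from 1 table. The authors aligned filtered reads by HISAT2 and assembled transcripts by StringTie. They deposited TPM with 2 decimals for each sample, beside the authors' mean TPM of each group, which was not used. How TPM was made and the rat build are not given in the sources used here, and the submitters' processing notes list mm10, a mouse build, although the identifiers are of rat. TPM keeps no depth, so the depth per sample is unknown and precision rests on the spread of 4 samples. The number of columns of other series was 0.

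limma 3.58.1 in R 4.3.3 was fitted to log2(TPM + 1) over genes whose TPM averaged 1 or more, with a trend, without a block, and with Benjamini-Hochberg adjustment over all 13103 genes, after tests on simulated data. A change on this scale understates that of low genes. Ratios and single genes were compared by exact permutation over 70 relabelings (SciPy 1.17.1). The named genes were the 9 members, the other calpain genes, Piezo1, and in each list the genes past both thresholds plus up to 2 rises and 2 falls with a mean of at least 5 TPM. Xiap, Bax, Actn4, Sri, Pef1 and the markers stand outside this rule, and some genes it names are not reported here. The members and lists were chosen with earlier results of these data known. Alternatives were a pseudocount of 0.1, no filter, a mean of at least 5 TPM, median-ratio scaling, quantile normalization, no mitochondrially encoded genes, no trend, the replicate number as a block, and leaving out each sample.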

Additional observations from a re-analysis of the deposited data

Results flagged for a closer look

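Within groups of 4 samples, 3 values among 80 groups examined stood apart, by Dixon's criterion on the gap to the nearest sample over the range (95% level). Chance flags about 1 in 20 such groups. Capn7 was lowest in Lv-Ctrl replicate 3, at 12.25 TPM against 15.25 to 15.58 TPM in the other samples of the group. Ctsk was lowest in Lv-Piezo1 replicate 1, at 69.24 TPM, and Gca was highest in the same sample, at 4.29 TPM.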

How the results depend on the processing

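Across the 16 alternative fits, Capn5 and Capn15 kept an adjusted p below 0.05 and their direction, with log2 fold changes of 0.31 to 0.50 and 0.15 to 0.40, and Capn12 did so in the 15 fits that tested it. Capn2 lost the call in 12 of 16, and its sign turned to -0.0048 after median-ratio scaling. The number of members with an adjusted p below 0.05 was 4 on the deposited values, 2 after quantile normalization, where Capn2 and Capn10 lost the call, and 3 to 4 when single samples were left out. The cause was not tested. Genes of the pathway lists with an adjusted p below 0.05 numbered 43 to 53, and those past both thresholds 6 to 11 (43 and 6 at a mean of at least 5 TPM, where fewer genes are tested). Over all genes, 1005 passed both thresholds on the deposited values and 628 at that limit. Piezo1 ranged from 0.22 to 0.43 on the log2 scale.

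With the replicate number as a block, 3 members had an adjusted p below 0.05, and Capn2 had 0.082. Deviations of same-numbered samples from their group means correlated at -0.06 to -0.01 over genes, and 0 of 8 samples correlated best with their own number, so the numbers were not taken to pair the samples. Per the study's methods, cells of an isolation received the different treatments and counted as an independent repeat. Both groups may thus share isolations, and with so few samples this check cannot exclude such a pairing. The ratio differences did not pass under the block (exact two-sided sign-flip test, p = 0.50 for Capn2 to Capn1), where 0.125 is the smallest p possible, or when a sample was left out, where it is 0.057. Left-out samples gave -2.0e-04 to 0.16 for Capn2 to Capn1, -0.02 to 0.10 for the catalytic sum to Capns1 and -0.02 to 0.03 for Cast to that sum. Quantile normalization gave 0.20, -0.02 and -0.06. Unknown depth limits what can be said of Capn6 and the other calpains near 0.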
